A study of Danio rerio with 13 samples.

Results

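The cytosolic ribosomal protein genes of the zebrafish heart were followed through 13 injured ventricles. Members were taken from a supplementary gene list of the study. They are its genes under the Reactome term peptide chain elongation whose symbol starts with rpl or rps. The paper describes that list as differentially regulated genes of mutant and control ventricles from this same experiment. Membership therefore cannot be taken as independent of the comparisons below. This gave 64 of the 32520 genes in the count table: 38 of the large subunit and 26 of the small subunit. All 64 are paired in the study's list with a human ribosomal protein gene of the RPL or RPS series, and all were kept whatever their counts. A cytosolic ribosome is built of a small subunit, which binds the messenger RNA and decodes it, and a large subunit, which joins the amino acids and passes the growing chain through an exit tunnel. Ribosomal proteins bind the ribosomal RNAs, shape the sites where transfer RNAs and translation factors dock, and are made in nearly every cell. In heart muscle, as in other tissues, the supply of ribosomes sets an upper limit on how much protein a cell can make.

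The study asked which transcripts differ in the ventricle of fish whose lymphatic vessels fail to form. The mutants were vegfc(hy-/-);vegfd(-/-) fish (n = 6), which carry a hypomorphic vegfc allele, with reduced function and not a complete loss, together with a null vegfd allele. The controls were vegfc(+/+):vegfd(+/+) fish (n = 7). Vegfc and Vegfd are the growth factors that drive lymphatic vessel growth. All fish were size-matched adults (their age is not given in the sources used here) from lines crossed to a lyve1b:DsRed reporter of lymphatic endothelium, and every ventricle had been frozen locally (cryoinjury) 180 days before collection, so the controls were injured too. Sample labels do not say which mutant hearts regenerated, and the mutants form 1 group here. The paper's comparison by regeneration used more mutant hearts than the 6 here, so these libraries hold only a part of that set. For each ventricle RNA came from 12 fixed cryosections of 8 μm. Libraries are called mutant 1 to 6 and control 1 and 3 to 8 after the numbers in their labels.

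The libraries are uneven, and this bears on every value that follows. Mutant libraries held 3575023 to 12972634 counts in total, and control libraries 2123784 to 4291363. A single gene, rn7sl1, which encodes the RNA of the signal recognition particle, took 94.7% to 96.4% of the counts in mutants and 60.8% to 91.5% in controls, leaving 171218 to 596616 counts for all other genes in mutants and 256802 to 1070324 in controls. Levels are therefore given as CPM, counts scaled to a common library total, with rn7sl1 left out of that total. A floor of 3 counts stood at 5.03 to 17.5 CPM in mutants and at 2.80 to 11.7 CPM in controls. Control 8 stands apart by its low share of rn7sl1 (60.8%), its 1070324 other counts and its count of 0 for actc1a, a cardiac actin. Cardiomyocyte markers were counted in all 13 ventricles, with a summed level over the 5 of 8 listed markers that could be matched of 571 to 4940 CPM in mutants (median 2971) and 328 to 1087 CPM in controls (median 733).

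Most members were counted in only some ventricles. Of the 832 member values (64 genes in 13 libraries), 405 (48.7%) were 0, 53 were between 1 and 3 counts, 120 between 4 and 49, and 254 were 50 or more. Zeros made up 42.2% of the 384 mutant values and 54.2% of the 448 control values. Over all 6138 genes that entered the test, zeros made up 56.7% of mutant and 52.8% of control values, so the order of the groups was the other way round for the average tested gene. A member had a count in a median of 7 libraries, against 6 for all genes tested. The highest library supplied a median of 43.9% of a member's counts, against 46.5% for all genes tested, and for 18 members it supplied most of the counts.

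**Figure D1:**
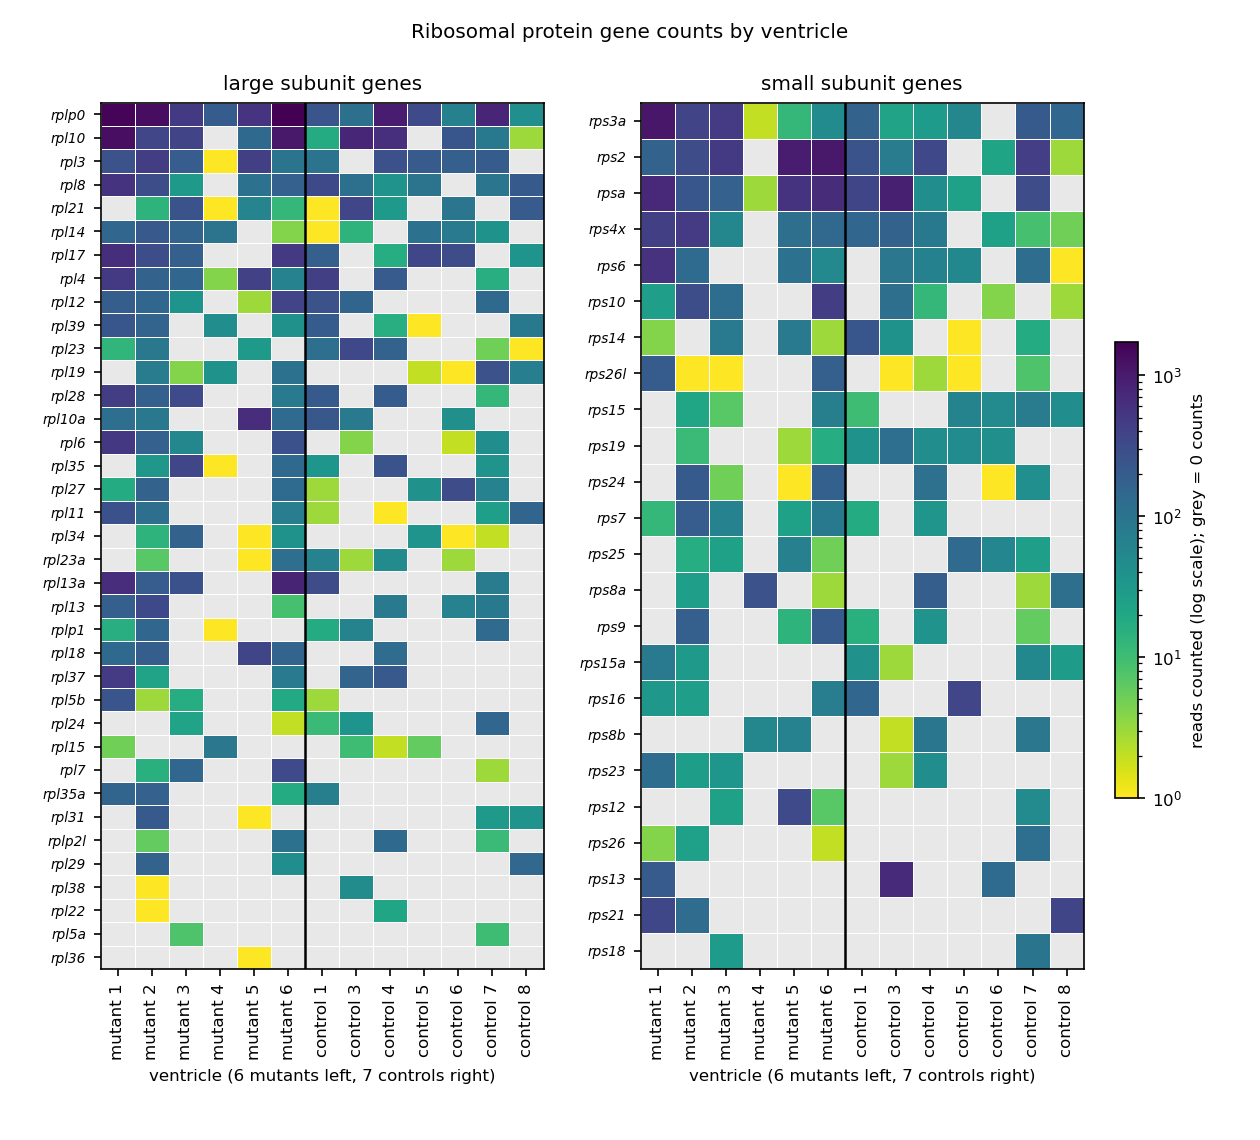
Reads counted for 61 of the 64 ribosomal protein genes (rows, ordered by the number of ventricles with a count) in each ventricle (columns, the 6 mutants left of the line and the 7 controls right of it), on a log colour scale with 0 counts in grey. Only the top row, rplp0, has no grey cell, and mutant 4 has a count for 14 of the 64 genes.

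Each mutant had a count for 14 to 54 members (median 38.5) and each control for 20 to 41 (median 30). Mutant 2 had the most, with 34 of the large and 20 of the small subunit, and mutant 4 the fewest, with 10 and 4. The groups overlapped over most of their range. In every mutant but mutant 4 members were counted more often than the average tested gene: in mutant 3, 56.2% of members had a count and 28.3% of all genes tested, in mutant 1 the shares were 64.1% and 35.4%, and in mutant 5, with the smallest gap, 43.8% and 42.0%. In mutant 4 the order was reversed, with 21.9% of members and 35.2% of genes tested, and controls lay on both sides, from control 7, with 64.1% of members and 53.3% of genes tested, to control 5, with 31.2% and 44.3%. A larger share of mutants than of controls had a count for 45 members, a smaller share for 18, and an equal share for 1. The library with a member's highest count, not scaled for depth, was a mutant for 42 members (mutant 1 for 16, mutant 2 for 10 and mutant 6 for 8) and a control for 22. No matching shares over all genes tested were taken, so these numbers are not read as a result about the members.

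**Figure D2:**
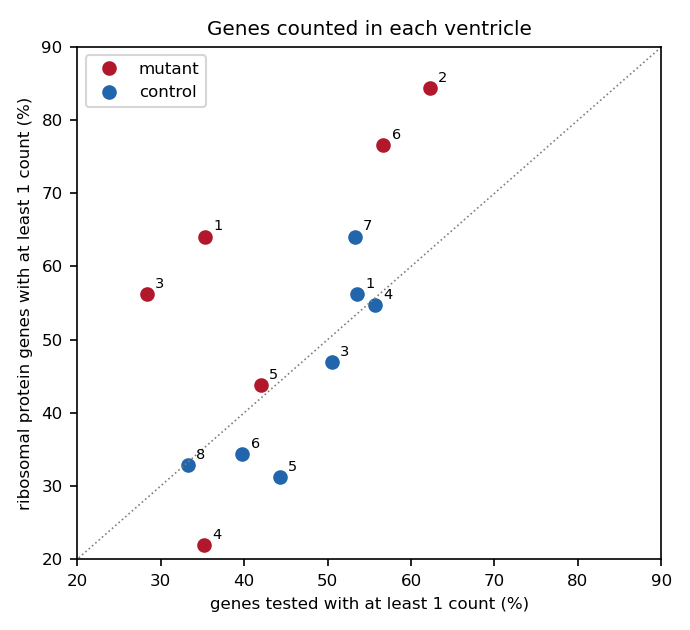
Share of the 64 ribosomal protein genes with at least 1 count (y axis, %) against the share of the 6138 genes tested with at least 1 count (x axis, %), 1 point for each ventricle with its number, mutants in red and controls in blue. The dotted line marks equal shares; mutants 1, 2, 3 and 6 lie well above it and mutant 4 lies below it.

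Summed over all members, the level was highest in mutant 1 (30962 CPM) and lowest in control 8 (1685 CPM). Mutants spanned 4690 to 30962 CPM (median 18280) and controls 1685 to 13866 CPM (median 10498). Mutants 1, 2, 3 and 6 were above every control, while mutants 4 and 5 lay within the control range. The order of the medians depended on the denominator: as CPM of all counts, rn7sl1 included, the 6 mutants had sums of 225 to 1181 (median 794), against 475 to 1403 in the 7 controls (median 1039). In bulk tissue a change in the share of a cell type and a change in RNA per cell cannot be told apart. Mutants 1, 2, 3 and 6 also had the 4 highest summed cardiomyocyte marker levels, a sum over the same denominator. The matched markers did not all share this pattern. actc1a had 137 to 1003 counts in mutants and 0 to 129 in controls. tpm4a had 0 to 238 counts in mutants and 16 to 212 in controls, and myl7 had 0 in mutant 3. Erythrocyte markers (3 of 6 matched, of which 2 had a count in each group) summed to 0 to 631 CPM in mutants (median 171) and 0 to 11.2 CPM in controls (median 0), and leukocyte markers (4 of 7 matched, lyz at 0 in every library) to 0 to 61.5 CPM in mutants (median 8.57) and 0 to 350 CPM in controls (median 81.1). Endothelial markers (3 of 5 matched) summed to 5.84 to 322 CPM in mutants (median 194) and 0 to 301 CPM in controls (median 7.91). Of the lymphatic endothelial markers (2 of 4 matched, flt4 at 0 in every library) lyve1b had 1326 counts in mutant 3, the highest of all libraries, so the sum was 0 to 4977 CPM in mutants (median 0) and 0 to 553 CPM in controls (median 148). Fibroblast and epicardial markers (4 of 6 matched, tcf21 at 0 in every library) summed to 263 to 831 CPM in mutants (median 382) and 145 to 823 CPM in controls (median 661). The part of these cell types in the result was not tested.

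The subunits were then taken apart. Large subunit genes summed to 2827 to 20261 CPM in mutants (median 11909) and 930 to 9388 CPM in controls (median 5463), a ratio of medians of 2.18. Small subunit genes summed to 1863 to 10701 CPM in mutants (median 6372) and 755 to 7547 CPM in controls (median 3619), a ratio of medians of 1.76. Both ratios fell below 1 as CPM of all counts (0.874 and 0.715). The sums of the subunits moved together over the 13 ventricles (Spearman's rho 0.75, a description only, since both sums share their libraries and denominators). Large subunit counts were 1.04 to 1.99 times the small subunit counts in mutants and 0.70 to 4.24 times in controls, and control 6, at 4.24, was the only library above 2.10.

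**Figure D3:**
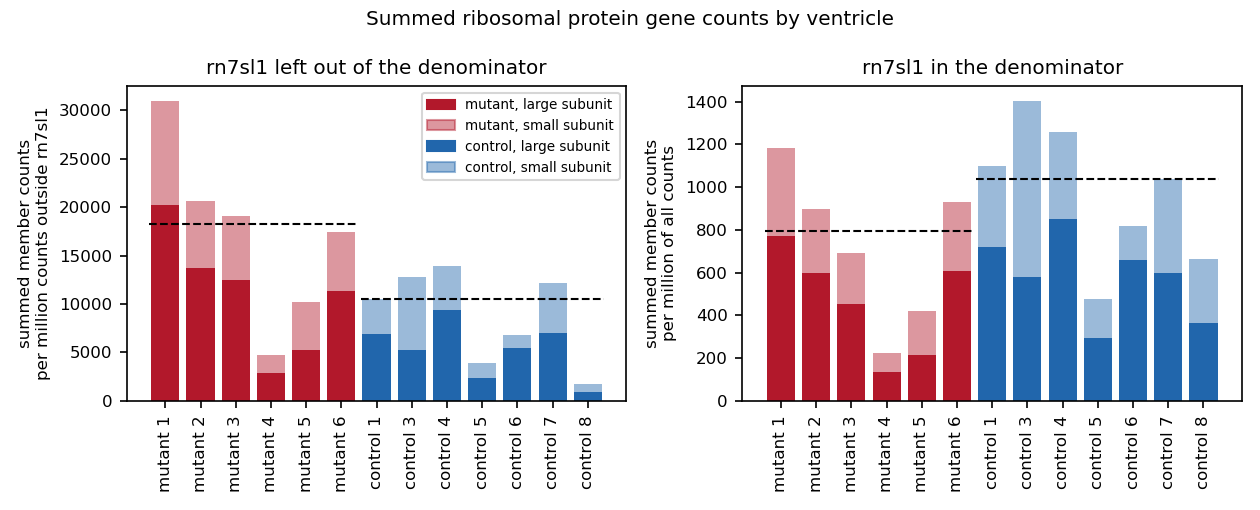
Summed counts of large (dark) and small (light) subunit genes in each ventricle, mutants in red and controls in blue, with dashed lines at the group medians, as CPM outside rn7sl1 (left panel) and CPM of all counts (right panel). The mutant median is the higher one on the left (18280 against 10498) and the lower one on the right (794 against 1039).

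Mutant and control ventricles were compared by the quasi-likelihood test of edgeR on the counts of the 6138 genes that averaged 10 counts or more over the libraries, with TMM scaling and Benjamini-Hochberg adjustment over all of them. This filter kept 58 members (33 large, 25 small) and left out rpl5a, rpl15, rpl22, rpl36, rpl38 and rps18. None of the 58 passed an adjusted p of 0.05, and the lowest adjusted p was 0.103, for rpl7. DESeq2 and voom also called 0 of them. The value of 0.103 is not particular to rpl7, since the adjustment gave it to genes with quite different unadjusted p. By edgeR's quasi-likelihood test rpl7 had an unadjusted p of 0.0082, and rplp2, a ribosomal protein gene outside the members, one of 0.00027. An adjusted p of 0.103 is therefore not read as a near miss. Over all genes tested 6 passed (0.0978%), 1 higher in mutants (0.0163%) and 5 lower (0.0815%). At an unadjusted p under 0.05, 3 members (rpl7, rpl5b and rpl6; 5.17%) were higher in mutants and 0 were lower, where 5.9% of all genes tested were higher and 9.3% lower (15.2% in either direction). The share of members higher in mutants was thus close to that of all genes. No member had groups that did not overlap in level, as 0.13% of all genes tested did.

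The fitted log2 fold change of mutants over controls was above 0 for 41 of the 58 members (70.7%), as it was for 44% of all genes tested. As the members were listed by the study for this same experiment, this contrast is a description only. Its median was 0.87 over the members, 0.93 over the large subunit (26 of 33 above 0) and 0.60 over the small subunit (15 of 25 above 0), and −0.30 over all genes tested. Member values ranged from −3.20 for rpl24 to 6.63 for rpl7, and their SE was never under 1.34. The median moved with the scaling of the libraries: it was 0.51 with RLE, 0.94 with TMMwsp, 2.42 with upper-quartile scaling and −0.44 without scaling. In that last setting 23 of 58 members (39.7%) were above 0, against 26.0% of all genes tested. The median of all genes moved too, so that the members stayed above it by 1.02 to 2.03 on the log2 scale under these scalings. Without mutant 1 the median of members was 0.42, and leaving out control 8, the library that stands apart, gave 1.05.

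**Figure D4:**
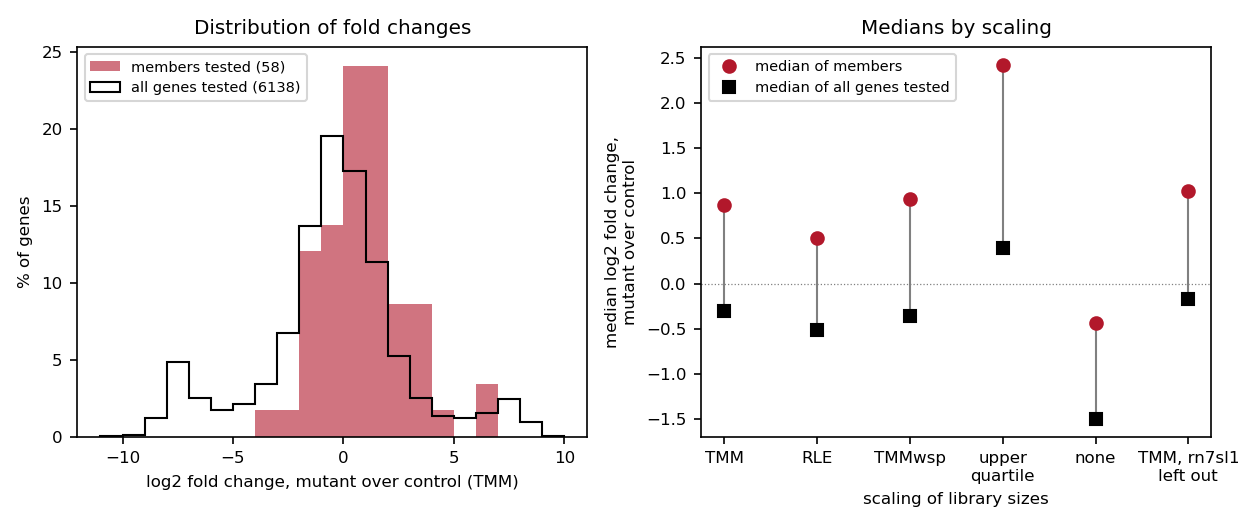
Left panel, distribution of the fitted log2 fold change of mutant over control (x axis) as a share of genes (y axis, %), for the 58 members tested (red) and the 6138 genes tested (black outline). Right panel, median log2 fold change of members (red circles) and of all genes tested (black squares) under each scaling of library sizes; the member median is 0.87 with TMM and −0.44 without scaling, and lies above that of all genes under each of them.

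Of the large subunit genes, rpl7 (ENSDARG00000007320), whose protein sits at the surface of the large subunit, had the lowest p. It had 0, 15, 153, 0, 0 and 320 counts in mutants 1 to 6 and 3 counts in control 7, with 0 in every other control. Its level was 536 to 574 CPM in mutants 3 and 6 and no higher than 9.02 CPM in any control, while mutants 1, 4 and 5 were level with the controls at 0. Its log2 fold change was 6.63 (SE 2.51; edgeR's quasi-likelihood test, unadjusted p = 0.0082, adjusted p = 0.103). Since the controls hold 3 counts in all, this fitted value depends on the prior count; the ratio of the pooled counts, each group's sum over its pooled counts outside rn7sl1, was 225 (exact 95% interval 76.6 to 1096, counting error only), and over all counts it was 71.6 (24.3 to 348). Without mutant 6 the adjusted p was 0.342.

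rpl5b (ENSDARG00000015862) encodes Rpl5, which with Rpl11 carries the smallest ribosomal RNA of the large subunit into the pre-ribosome, and human RPL5 is a gene of Diamond-Blackfan anaemia, an inherited failure of red cell production. It had 241, 3, 17, 0, 0 and 19 counts in mutants 1 to 6, and 3 counts in control 1 with 0 in the other controls. Mutant 1 alone held 85.2% of its counts, and without that library the gene did not reach a mean of 10 counts. Its log2 fold change was 6.13 (SE 2.85; edgeR's quasi-likelihood test, unadjusted p = 0.0318, adjusted p = 0.259), and the ratio of the pooled counts was 129 outside rn7sl1 (exact 95% interval 43.8 to 630, counting error only) and 41.1 over all counts (13.9 to 200.3). Its paralog rpl5a had 8 counts in mutant 3 and 10 counts in control 7 and 0 in all other libraries, and was not tested. The partner rpl11 was counted in 3 mutants and 4 controls, with up to 267 counts in mutant 1 and up to 155 counts in control 8 (log2 fold change 0.93).

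rpl6 (ENSDARG00000058451) encodes another protein of the large subunit's surface. It had 506, 174, 54, 0, 0 and 271 counts in mutants 1 to 6, and 45 counts in control 7, 4 in control 3, 2 in control 6 and 0 in the other controls. Mutants 4 and 5, which lacked rpl5b and rpl7, had no count here either. They had the fewest members counted among the mutants (14 and 28 of 64), so their zeros are not particular to these genes. Mutants 1, 2, 3 and 6, at 203 to 1126 CPM, lay above the highest control, at 135 CPM. Its log2 fold change was 3.96 (SE 1.89; edgeR's quasi-likelihood test, unadjusted p = 0.036, adjusted p = 0.277). With mutant 1 left out the unadjusted p was 0.104, and it was above 0.05 also without mutant 2 or 6 or without control 1, 4, 5 or 8.

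**Figure D5:**
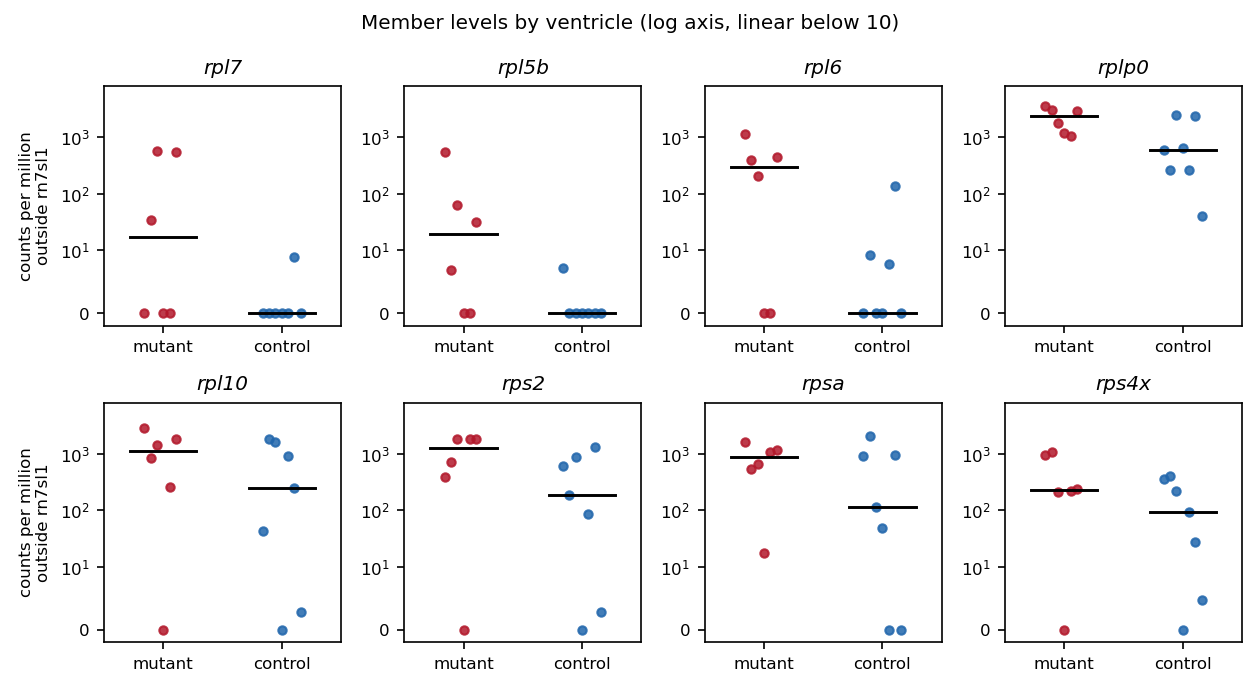
Level of 8 members in each ventricle, in CPM outside rn7sl1 on a log axis that is linear below 10, mutants (red) left of controls (blue), with a line at each group's median. All 8 shown have a fitted log2 fold change above 0, as 41 of the 58 tested members had. The 17 members below 0, such as rpl21, are not shown. rpl7 and rpl5b lie at 0 in all but 1 control each, whereas rplp0 lies above 0 in every ventricle and its groups overlap.

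The stalk of the large subunit, which recruits the elongation factors that bind GTP, is formed by the P proteins on a base that includes Rpl12. rplp0, the stalk's anchor, was the only member counted in all 13 ventricles. It had 201 to 1717 counts in mutants (median 950.5) and 43 to 964 counts in controls (median 245), which is 1059 to 3537 CPM in mutants and 40.2 to 2477 CPM in controls. All 6 mutants were above the control median, but controls 4 and 7 lay within the mutant range, and the log2 fold change of 1.23 (SE 1.34) did not pass (edgeR's quasi-likelihood test, adjusted p = 0.976). The other stalk members showed no such breadth. rplp1 was counted in 3 mutants (up to 153 counts) and 3 controls (up to 134 counts), and rplp2l in 2 mutants (up to 104 counts) and 2 controls (up to 138 counts). rpl12 was counted in 5 mutants, with a median of 91.5 and up to 379 counts, and in 3 controls, with a median of 0 and up to 266 counts (log2 fold change 0.44).

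Rpl10 joins the large subunit late in its maturation and lies near the transfer RNA that carries the growing chain. rpl10 had 0 to 1299 counts in mutants (median 373) and 0 to 770 counts in controls (median 84), with a log2 fold change of 1.1 (SE 1.46; edgeR's quasi-likelihood test, adjusted p = 0.9998). Mutant 4 and control 5 had none, and control 3 was level with mutant 6 (1784 and 1782 CPM). Rpl3 and Rpl8 reach toward the site where peptide bonds form. rpl3 had 1 to 460 counts in mutants (median 228) and 0 to 277 counts in controls (median 183), and rpl8 had 0 to 576 counts in mutants (median 140) and 0 to 336 counts in controls (median 102). Their log2 fold changes of 0.59 (SE 1.55) and 0.37 (SE 1.58) were smaller than their SE, and both were below 0 without scaling (−0.81 and −0.99). rpl21 went the other way, with 0 to 255 counts in mutants (median 13) and 0 to 362 counts in controls (median 31; log2 fold change −1.01, SE 1.75), although mutant 3 had the highest level of all libraries (957 CPM).

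Members that line the exit tunnel, Rpl4, Rpl17 and Rpl39, had a count in most mutants, and rpl17 and rpl39 had one in most controls too. rpl4 had 4 to 483 counts in mutants (median 157.5) and 0 to 431 counts in controls (median 0), being counted in 6 mutants and 3 controls. rpl17 had 0 to 644 counts in mutants (median 245) and 0 to 351 counts in controls (median 36), being counted in 4 mutants and 5 controls. rpl39 had 0 to 232 counts in mutants (median 43) and 0 to 202 counts in controls (median 1), being counted in 4 mutants and 4 controls. For all 3 the ranges of the groups overlapped, and the log2 fold changes were 1.04, 0.74 and 0.69 with SE of 1.55 or more.

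At the mouth of the tunnel lie Rpl19, Rpl23a, Rpl31 and Rpl35, next to which the signal recognition particle and nascent chain chaperones dock. rpl19 had 0 to 105 counts in mutants (median 21.5) and 0 to 265 counts in controls (median 1), where control 7 alone held 46.7% of its counts. rpl23a had 0 to 121 counts in mutants (median 0.5) and 0 to 64 counts in controls (median 3), and rpl35 had 0 to 359 counts in mutants (median 17) and 0 to 258 counts in controls (median 0). rpl31 was counted in only 4 libraries, with 213 counts in mutant 2, 1 in mutant 5, 31 in control 7 and 37 in control 8. These 4 genes had log2 fold changes of both signs, from −0.81 for rpl19 to 1.65 for rpl31, with SE of 1.78 or more.

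Other large subunit members have known roles beside their place in the structure. rpl10a, whose protein forms the mobile stalk beside the exit of spent transfer RNA, had 0 to 669 counts in mutants (median 103) and 0 to 226 counts in controls (median 0). rpl23 and rpl24, whose proteins lie on the face that meets the small subunit, both had fitted fold changes below 0: rpl23 had 0 to 86 counts in mutants and 0 to 342 counts in controls (log2 fold change −1.67, SE 1.90), and rpl24 had 0 to 23 counts in mutants and 0 to 150 counts in controls (log2 fold change −3.20, SE 2.61). Neither gene had an unadjusted p under 0.05 by edgeR's quasi-likelihood test. rpl13a, whose human protein can leave the ribosome to silence inflammatory transcripts, was counted in 4 mutants (median 232, up to 828 counts) and in 2 controls (median 0, up to 310 counts), with a log2 fold change of 2.21 (SE 1.62; edgeR's quasi-likelihood test, adjusted p = 0.712). rpl35a, in human also a gene of Diamond-Blackfan anaemia, was counted in 3 mutants (up to 174 counts) and in control 1 alone (72 counts). rpl38, which in the mouse is needed to translate Hox transcripts, had 1 count in mutant 2 and 47 counts in control 3, and rpl22 had 1 count in mutant 2 and 21 counts in control 4. Each of these last 2 rests on 1 control library, so no fold is drawn from it.

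The remaining large subunit genes were counted unevenly. rpl14 was counted in 10 libraries, with 0 to 221 counts in mutants (median 127) and 0 to 108 counts in controls (median 14). rpl28 had 0 to 462 counts in mutants (median 132) and 0 to 212 counts in controls (median 0). For rpl18 the contrast in detection was wider, with 138, 193, 378 and 160 counts in mutants 1, 2, 5 and 6 and 126 counts in control 4 alone (log2 fold change 3.10, SE 1.84; edgeR's quasi-likelihood test, adjusted p = 0.483). rpl13 reached 330 counts in mutants and 85 counts in controls, being counted in 3 of each. rpl37 was counted in 3 mutants (up to 464 counts) and 2 controls (up to 222 counts), rpl34 in 4 mutants (up to 165 counts) and 3 controls (up to 36 counts), and rpl27 in 3 mutants (up to 168 counts) and 4 controls (up to 316 counts). A further 3 genes were rare: rpl29 was counted in mutants 2 and 6 (165 and 45 counts) and control 8 (144 counts), rpl15 had 89 counts in mutant 4 and no more than 10 in any other library, and rpl36 had a single count, in mutant 5. Mutant 4, with few member counts otherwise, was thus the main source of rpl15 reads.

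In the small subunit, the members counted most widely included rps3a, rps2, rpsa and rps4x. Rps3a lies where messenger RNA leaves the subunit and is a contact of the initiation factor eIF3. rps3a had 2 to 1092 counts in mutants (median 215) and 0 to 217 counts in controls (median 54), and its log2 fold change was 1.46 (SE 1.55; edgeR's quasi-likelihood test, adjusted p = 0.970). Only 3 of the 6 mutants were above the control median in level, and mutant 1 held 41.2% of the counts. Rps2, at the site where messenger RNA enters, gave the more even pattern: rps2 had 0 to 1064 counts in mutants (median 398.5) and 0 to 443 counts in controls (median 80), with 5 of 6 mutants above the control median (log2 fold change 1.27, SE 1.48; edgeR's quasi-likelihood test, adjusted p = 0.990).

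rpsa, whose protein is also known as a laminin receptor, had 3 to 728 counts in mutants (median 408.5) and 0 to 892 counts in controls (median 45). In level 5 of 6 mutants were above the control median while control 3 exceeded every mutant, and the log2 fold change was 0.66 (SE 1.48), turning to −0.73 without scaling. rps4x had 0 to 466 counts in mutants (median 130) and 0 to 172 counts in controls (median 24), with a log2 fold change of 1.79 (SE 1.66; edgeR's quasi-likelihood test, adjusted p = 0.915). In both rps2 and rps4x mutant 4 and control 5 were the libraries at 0.

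Rps6 is the substrate of S6 kinase downstream of growth signals. rps6 had 0 to 595 counts in mutants (median 79) and 0 to 123 counts in controls (median 53), and mutant 1 held 48.9% of its counts. Rps9 and Rps23 bear on the accuracy of decoding. rps9 had 187 counts in mutant 2, 14 in mutant 5 and 207 in mutant 6, against 15 counts in control 1, 37 in control 4 and 6 in control 7 (log2 fold change 3.07, SE 2.10). rps23 had 122, 28 and 34 counts in mutants 1, 2 and 3, against 3 counts in control 3 and 44 in control 4. Both were counted in 3 mutants, and neither had an unadjusted p under 0.05 by edgeR's quasi-likelihood test.

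Rps15, Rps16 and Rps18 belong to the head of the small subunit, which faces the transfer RNAs. Each of their genes had its highest count in a control. rps15 had 0 to 72 counts in mutants (median 3.5) and 0 to 78 counts in controls (median 45), and rps16 had 0 to 75 counts in mutants (median 13.5) and up to 363 counts in controls, in which only controls 1 and 5 had any. rps18 had 30 counts in mutant 3 and 98 counts in control 7 and 0 elsewhere. Of the head members that form the beak, rps10 had 0 to 459 counts in mutants (median 74.5) and 0 to 117 counts in controls (median 3; log2 fold change 3.24, SE 1.83, edgeR's quasi-likelihood test, adjusted p = 0.437). rps12 had 24, 322 and 7 counts in mutants 3, 5 and 6 and 50 counts in control 7, so that mutant 5 held 79.9% of its counts.

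In addition to RPL5, RPL11, RPL35A, RPS10 and RPS26, the human genes RPS7, RPS19 and RPS24 are known from Diamond-Blackfan anaemia. rps19 had a fitted fold change below 0: it had 0 to 17 counts in mutants (median 1.5) and 0 to 119 counts in controls (median 42), and 0 of 6 mutants were above the control median in level. Its log2 fold change was −2.97 (SE 2.48; edgeR's quasi-likelihood test, adjusted p = 0.833), and controls 7 and 8 had no count, as had mutants 1, 3 and 4. rps7 went the other way, with 0 to 199 counts in mutants (median 45) and counts in controls 1 and 4 only (18 and 35 counts; log2 fold change 3.24, SE 2.12, edgeR's quasi-likelihood test, adjusted p = 0.598). rps24 had 0 to 213 counts in mutants (median 3) and 0 to 109 counts in controls (median 0). Genes of this disease group thus lay on both sides of 0.

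rps14, whose human counterpart is deleted in a myelodysplastic syndrome, had 0 to 83 counts in mutants (median 3.5) and 0 to 235 counts in controls (median 1). rps25, needed in human cells for initiation at some viral internal entry sites, had 0 to 69 counts in mutants (median 11) and 0 to 136 counts in controls (median 0). The last 3 small subunit genes were rps15a, with up to 82 counts in mutants and 53 counts in controls, rps13, with 210 counts in mutant 1, 705 in control 3 and 130 in control 6, and rps21, with 354 and 126 counts in mutants 1 and 2 and 371 counts in control 8. For rps13 and rps21 every count came from 3 libraries, and the fitted log2 fold changes were −1.71 and −0.0014.

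For 3 ribosomal proteins a pair of zebrafish genes is among the members. Reads that map equally well to both copies may be lost to the mapping quality filter, so the counts of such pairs are uncertain. How alike the copies are in sequence was not examined. The rpl5a and rpl5b counts are given above, and mutant 3 was the only library with counts of both (8 and 17). rps8a had 0, 27, 0, 260, 0 and 3 counts in mutants 1 to 6, against 190 counts in control 4, 3 in control 7, 118 in control 8 and 0 in the other controls. rps8b had 54 counts in mutant 4 and 64 in mutant 5, against 2 counts in control 3, 92 in control 4 and 89 in control 7. Mutant 4, control 4 and control 7 thus had counts of both copies, and the log2 fold changes were 0.32 (SE 1.81) for rps8a and −0.53 (SE 2.24) for rps8b, signs that changed with the scaling.

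Rps26 lies at the messenger RNA exit. rps26 had 4, 26 and 2 counts in mutants 1, 2 and 6 and 120 counts in control 7, with 0 in all other libraries (log2 fold change −1.93, SE 2.63). Its copy rps26l had 202 counts in mutant 1, 188 in mutant 6 and 1 each in mutants 2 and 3, against 1 count in control 3, 3 in control 4, 1 in control 5 and 8 in control 7. Its log2 fold change was 4.56 (SE 2.44; edgeR's quasi-likelihood test, unadjusted p = 0.0619, adjusted p = 0.379). The copies thus differed in which libraries held their reads: control 7 for rps26 and mutants 1 and 6 for rps26l.

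The other genes of the study's translation lists were read from the same fit. Over all genes tested 5.9% were higher and 9.3% lower in mutants at an unadjusted p under 0.05, and the median log2 fold change was −0.30. Of the 7 further genes on the peptide chain elongation list, all tested, 0 were higher and 1 was lower in mutants at an unadjusted p under 0.05, and their median log2 fold change was −0.39. The 1 lower gene was eef1a1a, an elongation factor that brings aminoacyl transfer RNA to the ribosome: it had 0 to 31 counts in mutants (median 0) and 0 to 348 counts in controls (median 16; log2 fold change −4.25, SE 2.04, edgeR's quasi-likelihood test, adjusted p = 0.281). RPL37A, a large subunit gene written in capitals in the study's list and so outside the members, had 0 to 163 counts in mutants (median 0.5) and 0 to 289 counts in controls (median 2).

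Of 3 elongation and termination factors outside that list 1 was higher at an unadjusted p under 0.05. This was eef1g, which anchors the exchange factor complex of eEF1A: it had 9 to 1651 counts in mutants (median 1133.5) and 0 to 192 counts in controls (median 8; log2 fold change 3.83, SE 1.55, edgeR's quasi-likelihood test, adjusted p = 0.132). Of 10 initiation factor genes 8 were tested, with 2 higher (25%, against 5.9% of all genes tested) and 1 lower. With so few genes no result about the list is drawn from this share. eif3ba, a core subunit of eIF3, had 125, 111, 1 and 177 counts in mutants 1, 2, 3 and 6 and 0 in every control. For the pooled counts this is at least 191-fold higher against a floor of 3 counts over the control group (at least 60.7-fold on all counts). These pooled folds leave out the spread between ventricles. The fitted log2 fold change of eif3ba was 9.01 (SE 2.64, edgeR's quasi-likelihood test, adjusted p = 0.103). The other higher gene, eif2s1b, a subunit of the factor that brings the initiator transfer RNA, had 138 counts in mutant 2 alone. Its log2 fold change was 7.82 (SE 2.83, edgeR's quasi-likelihood test, unadjusted p = 0.0057, adjusted p = 0.103). An unadjusted p under 0.05 can thus rest on 1 library in these data. The lower gene, eif4a2, an RNA helicase, had 1 count in mutants and 158 counts in controls. Of 8 genes of secretory targeting 6 were tested, with 0 higher and 0 lower at that threshold. No gene of these lists passed an adjusted p of 0.05.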

How the data were processed

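RNA depleted of ribosomal RNA from 6 mutant and 7 control ventricles was analysed; condition and number were read from sample titles. Reads were trimmed by the authors, who aligned them to GRCz11 with BWA 0.7.17, which does not split reads over introns, and counted those with a mapping quality of at least 20 on the correct strand with featureCounts 1.5.0. The deposited values are raw counts, whole numbers for 32520 genes (12925 at 0 in every library), with no molecular identifiers named. No 2 libraries were identical.

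Genes averaging 10 counts or more were tested by edgeR 4.0.16 (R 4.3.3), using its quasi-likelihood test (TMM, 1 factor for condition, prior count 0.125, Benjamini-Hochberg adjustment over 6138 genes). The SE is the absolute log2 fold change divided by the square root of F. Intervals of ratios are exact 95% binomial ones. The procedure was run on simulated data whose dispersion was set far below that of these data (median 10.4). That run therefore does not show how the test behaves here. Pearson correlations of deviations between same-numbered libraries were −0.024 to 0.083 over 5 pairs, so no pairing was used. Alternatives were other scalings, filters and tests (DESeq2 1.42.0, limma 3.58.1), a replicate block and each library left out.

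Members and lists were chosen with earlier results of these data known. Members are given by their counts; 3 of them and 1 other gene, which the sums and counts of genes include, are not reported here. Fold changes with their SE, some also with a p, are given by rule for 3 kinds of member. These are members with an unadjusted p under 0.05, the 5 members of each subunit counted in the most libraries and the tested genes of paralog pairs. Other fold changes, some also with a p, were added after values were seen. No gene lengths or sequences were used, so levels are not compared between genes.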

Additional observations from a re-analysis of the deposited data

Results flagged for a closer look

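Within each group the levels of the 16 members named by the rule for fold changes, the sums, the number of members with a count and the ratio of subunits were searched for a library far from the rest (Dixon's test at 95%). Of 42 groups 12 had one. The usual chance rate of about 1 in 20 does not hold for groups made mostly of zeros, in which any single counted library stands apart, so this number shows no excess. Values are CPM outside rn7sl1. In mutants, mutant 1 stood apart for rpl5b (537, next 63.8), mutant 3 for rpl21 (957, next 112), mutant 2 for rps26 (59.3, next 8.90) and mutant 4 for rps8a (1519, next 61.5). In controls, control 7 stood apart for rpl6 (135), rpl7 (9.02), rps26 (361) and rps26l (24.0), control 1 for rpl5b (7.20) and rpl8 (807), and control 4 for rps8a (488). The ratio of large to small subunit counts was 4.24 in control 6, where the next control had 2.10.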

How the results depend on the processing

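No member passed an adjusted p of 0.05 under any alternative. The 16 members named by the rule for fold changes kept their direction in 378 of 402 fits of a member under an alternative, and changed sign in 24. Alternatives in which a member was not tested, such as rpl5b without mutant 1, are not among the 402. These fits share most of their libraries, so they are not independent checks. All genes called (6) became 87 with upper-quartile scaling, 14 without scaling, 2 with no filter, 2 with filterByExpr, 1 with the likelihood ratio test, 3 with the robust fit and 142 with DESeq2; those at an unadjusted p under 0.05 (933) became 6838 with no filter, 37 with filterByExpr, 112 with a count in at least 7 libraries and 491 with voom. Members higher at an unadjusted p under 0.05 (3) became 11 with upper-quartile scaling, 1 without scaling and 5 with voom. The shares were 19.0% of members against 12.3% of all genes tested, 1.72% against 4.40%, and 8.62% against 2.05%. With filterByExpr, which tested none of the 3, 0 members were higher, against 1.14% of all genes tested. With DESeq2 4 members were higher (6.90%, against 3.99% of all genes tested) and 1 was lower. Of all 6138 genes DESeq2 gave 799 an unadjusted p under 0.05, and only 245 of these were higher. The median of members was 2.42 with upper-quartile scaling and −0.44 without scaling. As CPM of all counts the ratio of medians was 0.874 for the large and 0.715 for the small subunit. With replicate number as a block, the numbers not pairing the fish, 1 gene was called and 109 had an unadjusted p under 0.05. Under this block 0 members were higher, against 0.456% of all genes tested, and rpl8 (−0.40), rps8b (0.28) and rps26 (2.04) changed sign. Signs also changed for rpl8 with RLE (−0.12), upper-quartile scaling (−0.0049), no scaling (−0.99), DESeq2 (−0.12) and voom (−0.21); rps8b with RLE (0.44), upper-quartile scaling (1.15) and DESeq2 (0.45); rpl21 with upper-quartile scaling (1.90); rps8a with upper-quartile scaling (−0.29), no scaling (−0.0037) and voom (−0.11); rps26 with DESeq2 (4.41) and voom (0.073); and, without scaling, rpl10 (−0.44), rpl3 (−0.81) and rpsa (−0.73). The cause of these changes was not tested, and DESeq2 gave no p for rps26. Leaving out 1 library gave 2 to 7 genes called, 868 to 1199 at an unadjusted p under 0.05 and a member median of 0.42 to 1.29. Ratios of medians were 1.93 to 2.28 (large) and 1.57 to 2.50 (small), with 1 to 5 members higher and 0 to 1 lower. It was 1 higher without mutant 1 (1.75%, against 5.59% of all genes tested) or mutant 6 (1.69% against 5.23%). It was 5 higher without control 3 (8.47% against 7.37%) or control 7 (8.93% against 7.59%). The 1 lower member came without mutant 1, where 971 of 6220 genes had an unadjusted p under 0.05. Only 348 of those 971 genes were higher. Leaving out 1 library moved rpl8 between −0.18 and 0.78, rps8a between −2.70 and 1.11, and rps8b between −1.47 and 0.63. Few counts limit every value: 405 of the 832 member values are 0, and rpl5b and rpl7 are not tested with filterByExpr or a count in at least 7 libraries.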

Other observations

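Another 16 ribosomal protein genes that the study's list does not hold were found by symbol, a list made after values were seen. Of these 11 were tested, and 1 was higher (9.09%) and 0 were lower in mutants at an unadjusted p under 0.05. Over all genes tested 5.9% were higher and 9.3% lower. The median log2 fold change of the 11 was 1.56, against −0.30 over all genes tested. As the list was made after values were seen, these numbers are a description only. The 1 higher gene was rplp2, the stalk partner of rplp1: it had 74, 16, 19, 0, 330 and 125 counts in mutants 1 to 6 and 0 in all 7 controls. For the pooled counts, against a floor of 3 counts over the control group, it was at least 260-fold higher outside rn7sl1 and at least 82.7-fold higher on all counts. These pooled folds leave out the spread between ventricles, and mutant 5 held 330 of the 564 counts. The adjusted p of rplp2 was 0.103 by edgeR's quasi-likelihood test, the same value as for rpl7. Its near namesake rplp2l, a member, was counted in 2 mutants and 2 controls. rps27a, which encodes ubiquitin joined to a small subunit protein, was counted in 6 mutants (1 to 500 counts) and 6 controls (0 to 197 counts), and rps20 in 5 mutants (up to 1350 counts) and 6 controls (up to 469 counts). rpl26 had no count in any library.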
